A study of Mus musculus with 3 samples.

Results

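Transcripts of 10 genes grouped as p53 targets of the DNA damage response were followed in single cells of mouse skin. They are Cdkn1a, Mdm2, Ccng1, Trp53inp1, Bax, Sesn2, Gadd45a, Gadd45b, Phlda3 and Btg2, chosen by name out of 26989 genes listed in at least 1 of the 3 count tables, and each of them was counted in each library. The libraries come from whole skin of C57BL/6 mice, given as 9 weeks old, dissociated and prepared with the Singleron GEXSCOPE kit, which tags the transcripts of each captured cell with a barcode. The UV plus vitamin D library is from irradiated skin that also had an agent abbreviated VD, taken to be vitamin D because the study's title speaks of it. The UV library is from irradiated skin with saline, and the control library from unirradiated skin with saline. By its title the study asks whether vitamin D protects skin from the inflammation of UVB photoaging. The dose and regimen of irradiation, the time between irradiation and sampling, the form of vitamin D and the number of mice in a library are not given in the sources used here.

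Each group is 1 library, so no difference could be tested across samples, and every comparison describes these libraries and not the treatments. Counts of a gene were summed over the cells of a class and library and divided by all counts of those cells, which gives CPM, the counts of a gene scaled to a fixed total, a level of that gene within the RNA of the class. A gene is called higher or lower where the ratio of CPM is at least 1.5-fold after adding 10 CPM to both sides. Folds are of CPM without that addition, and square brackets hold 95% intervals that cover counting error only. Both comparisons, UV plus vitamin D against UV and UV against control, use the same UV library, so a high or low value there enters both.

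The kept cells numbered 6199, 5451 and 9078 in the UV plus vitamin D, UV and control libraries, with 69126823, 50610389 and 79450666 counts and a median of 9301, 7566 and 6822.5 counts per cell. A ribosomal RNA gene took 7.22%, 10.4% and 11.4% of those counts. Keratinocytes, the cells that build the epidermis and hair follicle, made up 5731, 3575 and 8409 of the cells. Fibroblasts, the collagen-producing cells of the dermis, numbered 193, 379 and 201. Layers were named from marker genes: all 13 basal markers, 13 spinous markers, 17 granular markers and 16 late cornifying markers were counted in each library in the layer they name, and Col1a1 was at 5304, 15351 and 10145 CPM in the fibroblasts. This does not test the names, since they were given from these same markers. A marker also passes with any count, and 68, 72 and 67 of 74 keratinocyte layer markers were counted in fibroblasts too. A cluster of stressed suprabasal keratinocytes rich in stefin A transcripts held 24, 721 and 11 cells, so it lies almost wholly in the UV library and is not compared as a layer. Keratinocytes that no layer's markers named made up 18.8%, 8.16% and 32.5% of the cells.

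The protein p53 is a transcription factor that DNA breaks and ultraviolet photoproducts stabilise, and in epidermis it is a main barrier between sunlight damage and skin cancer. Its targets halt the cell cycle, carry out repair, start apoptosis, or feed back on p53 itself, with Mdm2, the ubiquitin ligase that marks p53 for degradation, as the central brake. Cdkn1a, which encodes the cyclin-dependent kinase inhibitor p21, is also known in epidermis as a gene switched on as keratinocytes leave the cell cycle, without need for p53.

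The sequence that p53 binds is a pair of 10-base half-sites, and the promoters that hold a half-site are shown first. RefSeq windows (build GRCm38.p6) of the 250 bases before the transcription start were searched for the consensus p53 half-site, whose letters read the same on both strands. Windows exist for 9 of the 10 genes, Trp53inp1 being without an entry, and 5 of these 9 hold a half-site, as do 8.20% of 27025 genes with a window. The stretches around the half-sites are given here 5′ to 3′ on the strand of the gene, with the half-sites in capitals.
Cdkn1a, chr17:29090892-29090951, plus strand: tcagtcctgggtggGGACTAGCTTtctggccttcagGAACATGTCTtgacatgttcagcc
Mdm2, chr10:117710910-117710969, minus strand: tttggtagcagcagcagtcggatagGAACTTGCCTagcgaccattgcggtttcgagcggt
Ccng1, chr11:40755437-40755496, minus strand: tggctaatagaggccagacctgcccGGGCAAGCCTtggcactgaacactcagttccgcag
Bax, chr7:45467065-45467124, minus strand: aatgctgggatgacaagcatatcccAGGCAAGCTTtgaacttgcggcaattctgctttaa
Gadd45a, chr6:67037413-67037472, minus strand: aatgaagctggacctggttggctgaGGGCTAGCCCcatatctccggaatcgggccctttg

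In the Cdkn1a window, which belongs to 1 of its 2 RefSeq starts, 2 exact matches to the half-site consensus lie 12 bases apart. The nearer match begins 51 bases before the start. It is followed without a gap by the stretch tgacatgttc, which departs from the consensus in its opening letter only and so was not counted. Which of these stretches p53 binds as a pair was not tested, and it need not be the 2 exact matches. A pair of exact matches no more than 13 bases apart is present in 18 of all genes (0.0666%), and Cdkn1a is the only one of the 9 members with a window that has it. The single half-site begins 186 bases before the start in Mdm2, 185 in Ccng1, 201 in Bax and 40 in Gadd45a. No half-site by this consensus lies in the windows of Sesn2, Gadd45b, Phlda3 and Btg2. A match is a stretch of letters and not a measured binding site, and sites outside the windows, such as in introns, were not searched.

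In all keratinocytes together the set ran lower in the UV library. Against control, 3 of the 10 genes were at least 1.5-fold lower in UV (Cdkn1a, Gadd45a and Gadd45b) and 0 were higher, where 1.24% of all 13530 genes with enough counts were lower and 2.35% higher. The median log2 ratio of the 10 was -0.31, against -0.08 over the 6080 genes above 10 CPM, of which 63.7% had a ratio below 1. Against UV, all 10 had ratios above 1 in UV plus vitamin D, with a median of 0.29, against 0.07 over the 5918 genes above 10 CPM, of which 32.9% had a ratio below 1. Of the 10, 0 were called in either direction, where 0.254% of all genes were higher and 1.43% lower. The cells behind these sums differ in make-up between libraries. With the stressed cluster left out, an alternative chosen after seeing the data, Cdkn1a and Gadd45a lost the 1.5-fold call in UV against control, with log2 ratios of -0.55 and -0.44, and Gadd45b kept it at -0.64, while Btg2 became called higher at 0.59. Scaling by median-of-ratios size factors also left 1 higher and 1 lower, with Cdkn1a at -0.52 and Gadd45a at -0.54 short of the call, Gadd45b at -0.79 and Btg2 at 0.61. With every library given the layer shares of control, Gadd45b alone remained called lower, at -0.75. For UV plus vitamin D against UV, the lowest log2 ratios over 17 other settings were -0.02 for Trp53inp1, -0.007 for Bax and -0.13 for Btg2. The ratios of the other members stayed above 1. Within layers, ratios above 1 numbered 9 of 10 in basal, 7 in spinous, 8 in granular and 9 in late cornifying cells. The upper follicle had 8 and dividing cells 10.

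Cdkn1a had 2408 CPM in UV plus vitamin D keratinocytes, 1647 CPM in UV and 2487 CPM in control. The UV library was the low one, 1.51-fold lower [1.497, 1.524] than control, and UV plus vitamin D was 1.46-fold higher [1.45, 1.48] than UV. UV was the lowest of the 3 libraries in each of the 6 keratinocyte layers and compartments compared, and in fibroblasts. In basal keratinocytes, which hold the stem and progenitor cells, Cdkn1a was at 1411 CPM in UV plus vitamin D, 798 CPM in UV and 1295 CPM in control. In the spinous layer just above, it was at 2476, 2040 and 2685 CPM, and in the granular layer at 2868, 1912 and 3015 CPM in the same order of libraries. The late cornifying cells, which are losing their nuclei, had 815, 482 and 821 CPM, and the upper hair follicle had 2969, 1706 and 3196 CPM. UV against control the difference was 1.62-fold [1.54, 1.71] in basal cells, 1.32-fold [1.30, 1.33] in spinous cells, 1.58-fold [1.54, 1.61] in granular cells and 1.87-fold [1.80, 1.96] in the upper follicle, each time lower in UV.

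**Figure D1:**
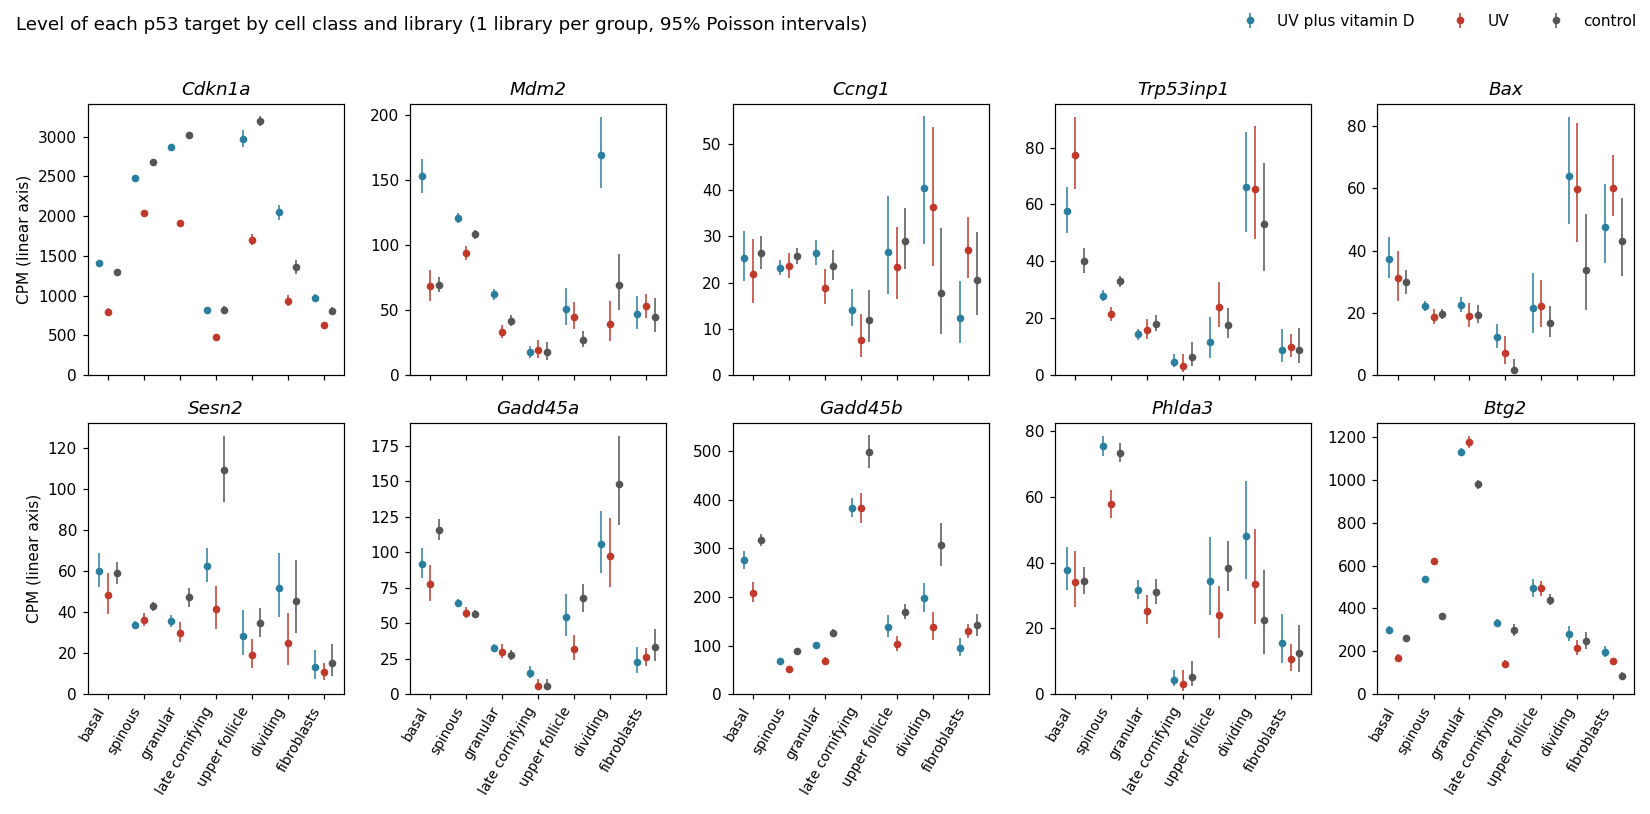
Level of each of the 10 genes (CPM, linear axis from 0) in 6 keratinocyte classes and in fibroblasts, for the UV plus vitamin D, UV and control libraries from left to right in each class. Points are the summed level of 1 library and bars its 95% Poisson interval for counting error. Cdkn1a is lowest in UV in every class shown, between 482 and 2040 CPM, and Btg2 is highest in granular cells, between 980 and 1177 CPM.

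Cdkn1a also differed between layers. Its mean over the 3 libraries was 2623 ± 803 CPM in the upper follicle, 2598 ± 599 in granular cells and 2401 ± 329 in spinous cells, whose library ranges overlapped (SD over 3 libraries of different treatment). Below them came T and NK cells with 1934 ± 524 CPM, dividing keratinocytes with 1448 ± 559, macrophages, monocytes and dendritic cells with 1421 ± 180, basal cells with 1168 ± 326, fibroblasts with 802 ± 170 and late cornifying cells with 706 ± 194. Each of these 9 classes overlapped the next in the order. In the T and NK cells 4 keratins stood at 84.3%, 44.3% and 88.0% of their keratinocyte level, and the part of keratinocyte RNA in their Cdkn1a was not tested. The difference between libraries was also there in the middle of the per-cell values. The median granular cell had 2778 CPM of Cdkn1a in UV plus vitamin D, 1869 CPM in UV and 2944 CPM in control, and the 25th to 75th percentile ran 2185 to 3359, 1369 to 2366 and 2340 to 3598 CPM. In basal cells the medians were 1085, 529 and 1013 CPM, and 95.2%, 83.9% and 91.5% of the cells had at least 1 count.

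**Figure D2:**
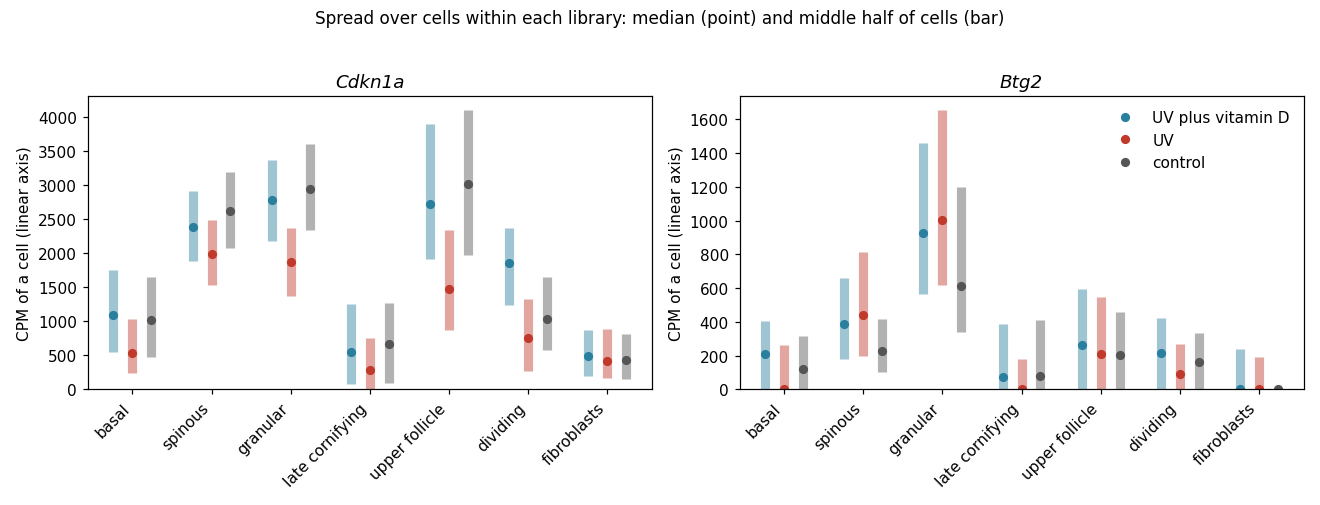
Cdkn1a (left) and Btg2 (right) per cell, in CPM of each cell (linear axis from 0), by class, with the UV plus vitamin D, UV and control libraries from left to right. Points are the median cell and bars run from the 25th to the 75th percentile of cells of 1 library. The Cdkn1a median of UV cells is below that of both other libraries in every class shown, 1869 CPM in granular cells against 2778 in UV plus vitamin D and 2944 in control.

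Gadd45a and Gadd45b encode small stress proteins that bind cell cycle and kinase regulators. Gadd45b was at 118, 81.7 and 157 CPM in UV plus vitamin D, UV and control keratinocytes, 1.92-fold lower [1.843, 1.995] in UV than in control. Its log2 ratio of UV against control was -0.68 in spinous cells, -0.79 in granular cells, -0.67 in the upper follicle and -1.09 in dividing keratinocytes, all called lower, and -0.58 in basal cells, just short of the threshold. Late cornifying cells were the exception: there Gadd45b had its highest levels, 384, 382 and 498 CPM, apart from every other class, and the UV and UV plus vitamin D libraries were close together. Gadd45a was at 56.2, 38.6 and 64.0 CPM in all keratinocytes, 1.66-fold lower [1.56, 1.76] in UV than in control. It was highest in dividing and basal cells, with 105, 97.5 and 148 CPM and 92.0, 77.2 and 116 CPM, and lowest in late cornifying cells at 14.99, 5.72 and 5.95 CPM. In spinous cells Gadd45a did not follow the sum, at 64.4, 57.4 and 56.6 CPM. Among keratinocytes of no named layer it was at 64.3, 24.4 and 74.0 CPM, and in the stressed cluster of the UV library at 18.7 CPM.

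Btg2, an antiproliferative protein that speeds the removal of poly(A) tails, was the one gene of the set that leaned the other way in the sum: 631 CPM in UV plus vitamin D, 597 CPM in UV and 410 CPM in control keratinocytes. UV was 1.46-fold higher [1.43, 1.48] than control there, short of the call at a log2 ratio of 0.53. The direction depended on the layer. In spinous cells Btg2 was at 537, 622 and 364 CPM in UV plus vitamin D, UV and control, 1.71-fold higher [1.66, 1.76] in UV than in control. In basal cells the order turned, with 301, 168 and 264 CPM, 1.57-fold lower [1.40, 1.77] in UV than in control. Late cornifying cells also had least in UV, with 333, 140 and 299 CPM. Granular cells held the highest Btg2 of any class, 1132, 1177 and 980 CPM, apart from the next class in each library. In the median spinous cell Btg2 was at 390, 442 and 228 CPM, and in the median basal cell at 208, 0 and 118 CPM.

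Mdm2 stood apart in the basal and dividing cells of the UV plus vitamin D library. In basal cells it was at 153 CPM there, against 68.4 CPM in UV and 69.3 CPM in control, so UV plus vitamin D was 2.23-fold higher [1.84, 2.72] than UV. UV and control differed by 1.01-fold [0.837, 1.23] in the same cells. In dividing keratinocytes Mdm2 was at 169, 39.3 and 69.3 CPM, from 151, 27 and 43 counts, which is 4.31-fold higher [2.85, 6.76] in UV plus vitamin D than in UV. Granular cells had 62.0, 33.5 and 41.9 CPM, 1.85-fold higher [1.57, 2.18] in UV plus vitamin D than in UV. The spinous layer, which has the most Mdm2 of the layers above the basal one, showed less, with 121, 93.8 and 108 CPM. Both basal clusters showed the Mdm2 difference, with 118, 64.8 and 68.9 CPM in the smaller and 163, 69.4 and 69.5 CPM in the larger one.

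Trp53inp1, a co-activator of p53 that also acts in autophagy, was the only member called higher in UV than in control in basal cells. It was at 57.7 CPM in UV plus vitamin D, 77.2 CPM in UV and 40.2 CPM in control, from 200, 149 and 322 counts, 1.92-fold higher [1.57, 2.34] in UV than in control. In spinous cells UV was instead the lowest, with 28.0, 21.4 and 33.0 CPM, 1.54-fold lower [1.35, 1.77] in UV than in control and under the call once 10 CPM were added. In granular cells UV lay between the other libraries, with 14.3, 16.01 and 18.1 CPM. The gene was higher in basal than in spinous cells in each library, and lowest in late cornifying cells at 4.72, 3.18 and 6.54 CPM.

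The remaining members sat at low levels in keratinocytes. Ccng1, or cyclin G1, which helps a phosphatase activate Mdm2, was at 24.1, 20.05 and 25.9 CPM in UV plus vitamin D, UV and control, and was called in dividing cells alone among the keratinocyte layers and compartments, 2.05-fold higher [0.974, 4.62] in UV than in control, an interval that takes in no difference. Bax, which opens the outer mitochondrial membrane in apoptosis, was at 23.1, 19.7 and 19.7 CPM, and UV and control differed by 1.001-fold [0.916, 1.09]. In dividing cells Bax was at 63.9, 59.7 and 33.8 CPM, 1.76-fold higher [1.02, 3.14] in UV than in control. Sesn2, a stress-induced inhibitor of mTORC1 signalling, was at 39.1, 32.7 and 49.1 CPM, 1.504-fold lower [1.41, 1.60] in UV than in control and under the call once 10 CPM were added. It was called lower in UV than in control in late cornifying cells, at 62.5, 41.3 and 109 CPM, in the upper follicle, at 28.5, 19.1 and 34.5 CPM, and in dividing cells, at 51.6, 24.7 and 45.1 CPM. In dividing cells the UV and control levels rest on 17 and 28 counts, and the interval of the fold takes in no difference. Phlda3, which keeps the survival kinase Akt off the membrane, was at 54.6, 39.7 and 53.9 CPM and was highest in spinous cells, with 75.6, 57.8 and 73.4 CPM.

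Counted by layer, the calls are these. In basal keratinocytes 1 of 10 was higher in UV than in control (Trp53inp1) and 2 lower (Cdkn1a and Btg2), where 2.61% of all genes measured were higher and 1.85% lower. For UV plus vitamin D against UV in basal cells 3 were higher (Mdm2, Cdkn1a and Btg2) and 0 lower, where the shares over all genes were 2.45% and 2.04%. In all layers above the basal one together, 0 were higher and 2 lower in UV than in control (Cdkn1a and Gadd45b), where 1.92% and 1.12% of all genes were, and 0 were called for UV plus vitamin D against UV, where 0.382% were higher and 1.28% lower. In those suprabasal cells the median log2 ratio of UV against control over genes above 10 CPM was itself -0.12, against -0.35 over the 10 members. With the stressed cluster left out of them, Cdkn1a and Gadd45b lost the call at -0.51 and -0.39, and Btg2 became the 1 gene called, higher in UV at 0.59. Median-of-ratios size factors gave the same turn, with Cdkn1a at -0.46, Gadd45b at -0.53 and Btg2 called higher at 0.60.

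Within single layers the spinous cells had 1 gene higher and 1 lower in UV than in control, where 1.37% and 0.703% of all genes were, and the granular cells 0 and 2, where 2.33% and 1.53% were. For UV plus vitamin D against UV the spinous cells had 0 calls, against 0.163% higher and 0.725% lower over all genes. The granular cells had 1 higher, against 0.768%, and 0 lower, against 1.35%. Smaller classes had a wider spread over all genes. In late cornifying cells, 3 of the 6 members with enough counts were lower in UV than in control, where 14.9% of all genes were lower and 5.03% higher. In the upper follicle 4 of 10 were lower and 0 higher, where 5.29% and 5.96% were, and in dividing cells 3 were lower and 2 higher, where 11.5% and 10.7% were. For UV plus vitamin D against UV the numbers higher and lower were 3 and 0 in late cornifying cells (8.52% and 3.25% of all genes), 2 and 1 in the upper follicle (5.39% and 7.31%), and 3 and 0 in dividing cells (12.2% and 10.1%).

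**Figure D3:**
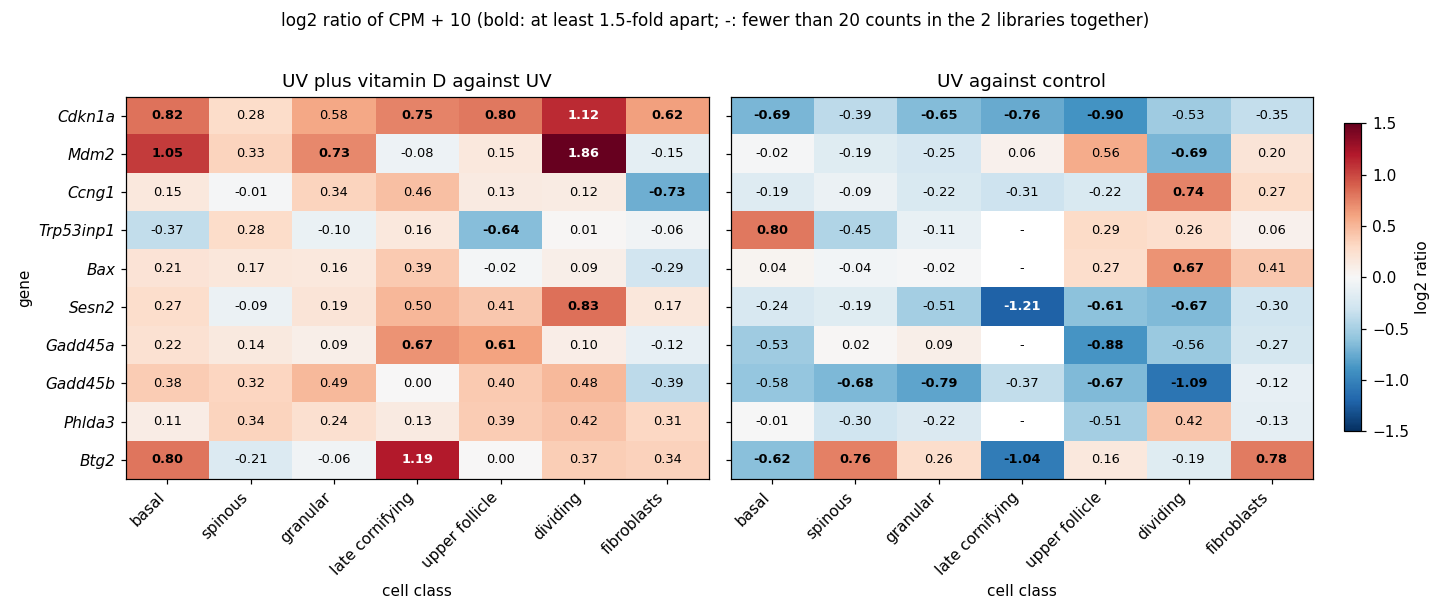
Log2 ratio of CPM + 10 for each gene (rows) and cell class (columns), UV plus vitamin D against UV on the left and UV against control on the right, red where the first-named library is higher and blue where it is lower. Bold values are at least 1.5-fold apart, and a dash stands for fewer than 20 counts in the 2 libraries together. The row of Cdkn1a is red throughout on the left (0.28 to 1.12) and blue throughout on the right (-0.90 to -0.35), and Btg2 changes sign between layers in both.

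Other values moved with the libraries in these classes. Of 22 immediate early and dissociation stress genes, which respond within minutes to handling and other stimuli, 11 were lower and 0 higher in UV than in control in basal cells, with a median log2 ratio of -0.59, and 7 were higher and 0 lower in UV plus vitamin D than in UV. Over all genes in basal cells, 1.85% were lower and 2.61% higher in UV than in control. For UV plus vitamin D against UV, 2.45% were higher and 2.04% lower. In all keratinocytes 4 of the 22 were lower in UV than in control, Nfkbia at 1067 and 2361 CPM, Atf3 at 153 and 303 CPM, Hspa1a at 137 and 227 CPM and Fosb at 63.4 and 101 CPM, with a list median of -0.06, and 0 were higher. For UV plus vitamin D against UV in all keratinocytes 0 of the 22 were higher and 1 lower, Fos at 106 and 238 CPM, with a list median of 0.05. Over all genes in keratinocytes, 1.24% were lower and 2.35% higher in UV than in control. In UV plus vitamin D, 0.254% were higher and 1.43% lower than in UV. Of 20 measured genes of dividing cells, 13 were higher and 0 lower in UV than in control in the dividing keratinocytes. Over all genes in that class 10.7% were higher and 11.5% lower. Of 19 measured, 13 were lower and 0 higher in UV plus vitamin D than in UV, where 10.1% and 12.2% of all genes were. The 12 markers of dividing cells summed to 1098, 2094 and 1139 CPM in UV plus vitamin D, UV and control dividing keratinocytes. Control was near UV plus vitamin D in these markers. In the same class Mdm2 was at 69.3 CPM in control and 169 CPM in UV plus vitamin D, and Cdkn1a at 1358 and 2046 CPM. Markers of fibroblasts, all 15 counted in each library, summed to 1232, 1408 and 1185 CPM in keratinocytes, and 50, 51 and 46 of 58 immune markers to 782, 986 and 698 CPM. The part of these lists in the differences of the 10 genes was not tested.

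Among 34 other p53 targets from a list drawn up for this comparison, 30 had enough counts in keratinocytes and 0 were higher or lower in UV than in control, with a median log2 ratio of -0.01, nor in UV plus vitamin D than in UV, at -0.04. The shares over all genes in keratinocytes were 2.35% higher and 1.24% lower in the first comparison, and 0.254% and 1.43% in the second. In basal cells 1 of 23 was higher and 0 lower in UV than in control, where 2.61% and 1.85% of all genes were. There 0 of 22 were called in UV plus vitamin D against UV, where 2.45% of all genes were higher and 2.04% lower. In spinous cells 2 of 27 were higher and 0 lower in UV than in control, where 1.37% and 0.703% of all genes were. In dividing keratinocytes 4 of 16 were higher and 1 lower in UV plus vitamin D than in UV, with a median log2 ratio of 0.25, and 1 was higher and 2 lower in UV than in control. Over all genes in dividing cells, 12.2% were higher and 10.1% lower in the first comparison, and 10.7% and 11.5% in the second. None of 14 measured p53 regulators and kinases was called in UV against control keratinocytes, where 2.35% of all genes were higher and 1.24% lower. Trp53, which encodes p53 itself, had 51.2 CPM in UV plus vitamin D, 36.9 CPM in UV and 50.04 CPM in control, 1.36-fold lower [1.28, 1.44] in UV than in control. Mdm4, a relative of Mdm2 that masks the activation domain of p53, had 9.76, 10.6 and 14.0 CPM. Of 14 relatives of the 10 genes, 1 was called in UV against control keratinocytes, where the same shares over all genes apply. It was Phlda1, a gene of the same domain family as Phlda3, at 225 and 110 CPM, 2.05-fold higher [1.99, 2.11] in UV.

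In fibroblasts the shares called were near those of all genes. Against control, 1 of 10 was higher in UV (Btg2) and 0 lower, where 10.5% of all genes were higher and 5.74% lower. Against UV, 1 was higher in UV plus vitamin D (Cdkn1a) and 1 lower (Ccng1), where 8.75% and 9.45% were. The Cdkn1a call held in 5 of 16 other settings, with log2 ratios between -0.14 and 0.79, and its ratio of UV against control ran between -0.70 and 0.75 over 17. Btg2 was at 197 CPM in UV plus vitamin D, 153 CPM in UV and 85.1 CPM in control, Cdkn1a at 969, 629 and 807 CPM, and Ccng1 at 12.3, 27.001 and 20.6 CPM from 15, 69 and 23 counts. Bax, at 47.5, 60.3 and 43.0 CPM, was above its level in basal keratinocytes in each library. Sesn2, Phlda3 and Trp53inp1 were near the lower end in fibroblasts, all between 8.96 and 15.6 CPM.

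Keratinocyte transcripts were present in the fibroblasts, and less so in UV. Krt1, Krt5, Krt10 and Krt14 together stood at 22.2% of their keratinocyte level in UV plus vitamin D, 9.09% in UV and 21.2% in control, and 68, 72 and 67 of 74 keratinocyte layer markers were counted there. RNA of keratinocytes at that share would by itself give 534, 150 and 527 CPM of Cdkn1a, out of the 969, 629 and 807 measured. The amounts left over are 435, 480 and 281 CPM, in which UV is no longer the lowest. For Btg2 the same share would give 140, 54.3 and 86.8 CPM, which in control is all that was measured. Of the other p53 targets, Sfn and Perp, both keratinocyte genes, had 1186, 319 and 1120 CPM and 1284, 462 and 1257 CPM in fibroblasts, in the same order as the keratins. Immediate early genes moved with the libraries here too. In UV 4 of 22 were higher and 0 lower than in control, where 10.5% and 5.74% of all genes were. In UV plus vitamin D 0 were higher and 10 lower than in UV, where 8.75% and 9.45% of all genes were. The part of keratinocyte RNA and of the immediate early genes in the fibroblast differences was not tested beyond these values.

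**Figure D4:**
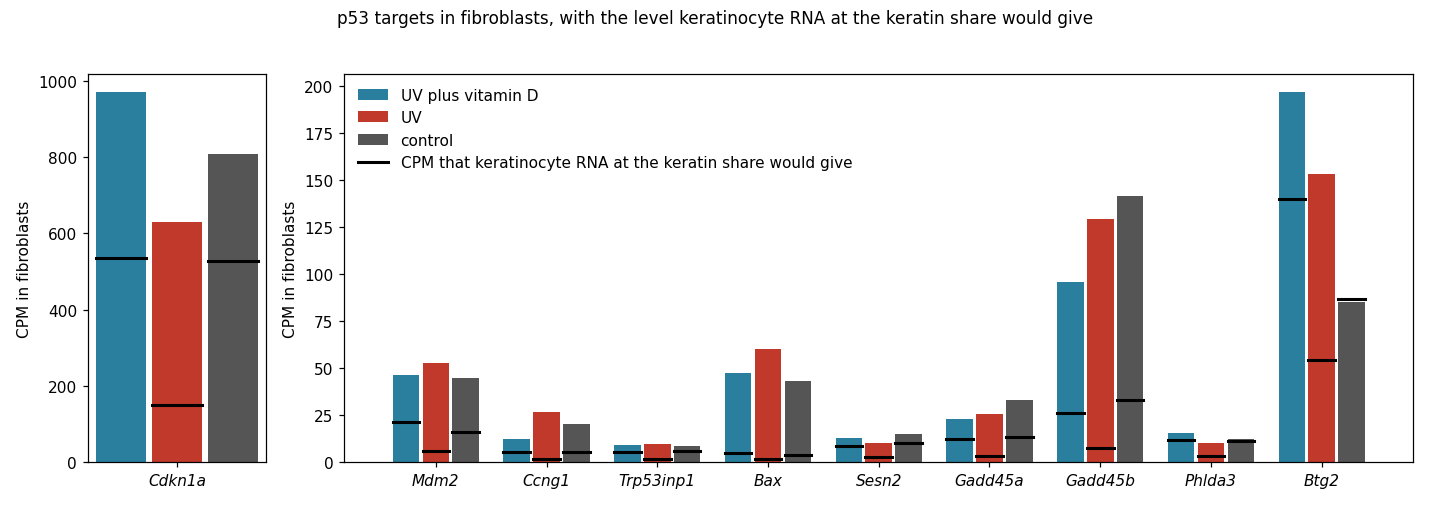
Level of the 10 genes in fibroblasts (bars, CPM from 0, Cdkn1a on an axis of its own at the left), in the UV plus vitamin D, UV and control libraries from left to right. Black lines mark the level that keratinocyte RNA at the share of Krt1, Krt5, Krt10 and Krt14 would give. For Cdkn1a the lines lie at 534, 150 and 527 CPM, and for Btg2 in control the line at 86.8 CPM reaches the bar of 85.1 CPM.

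Macrophages, monocytes and dendritic cells were counted as 1 class of 90, 589 and 134 cells. For UV against control, 6 of the 10 members had ratios above 1 and 4 below. Of the 6826 genes above 10 CPM, 39.8% had a ratio below 1, near the share of the members. The median log2 ratio was 0.45 over the members and 0.12 over those genes. By the call, 4 of 10 were higher in UV than in control (Btg2, Ccng1, Gadd45b and Mdm2) and 1 lower (Sesn2), where 18.3% of all genes were higher and 6.12% lower. Btg2 was at 260 CPM in UV plus vitamin D, 331 CPM in UV and 117 CPM in control, 2.84-fold higher [2.28, 3.58] in UV than in control. Mdm2 was at 211, 191 and 121 CPM, its highest mean of any class, and Bax likewise at 154, 134 and 100.4 CPM. Of the UV cells of this class 460 are in a cluster led by antigen presentation genes (H2-Aa, Cd74) that holds 15 cells of UV plus vitamin D and 21 of control, and 4 keratins stood at 22.95%, 20.1% and 20.5% of their keratinocyte level. The part of this make-up in the differences was not tested.

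Over 27 sums of 9 classes in 3 libraries, the members did not run as a block. Cdkn1a ran closest to Btg2 and Phlda3 among the others (Pearson's r of log2(CPM + 10) 0.75 and 0.75), and Bax ran against Sesn2 (r = -0.59). The genes with the pattern most like Cdkn1a among 2262 with a mean of at least 50 CPM were Psmd12, Erlin1 and Rab14 (r = 0.90 each), and for Gadd45a they were Trp63, Gnai1 and Dennd2c (0.94, 0.94 and 0.93). Map4 (0.89) was closest to Gadd45b, Dgcr6 (0.94) to Phlda3, Slc39a2 (0.92) to Btg2, Rap1a (0.92) to Bax, and Ssna1 (0.89) to Trp53inp1. Lower values were the highest for Sesn2 with Daam1 (0.85), Mdm2 with Spag9 (0.84) and Ccng1 with Usmg5 (0.83). These are descriptions: the 27 points share 3 libraries and their depth, and classes share cells of a lineage.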

How the data were processed

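The authors deposited 1 table of raw counts, gene by barcode, for each of the 3 libraries. The sources used here do not say whether these count reads or molecules, and if reads, the intervals are too narrow. FastQC, fastp, STAR and featureCounts, without versions, are listed in the submitters' processing notes, along with GRCh38, a human build, although the symbols are mouse symbols; genes are therefore matched by symbol and the coordinates given are those of RefSeq only. Barcodes with under 200 genes or over 20% mitochondrial counts were left out. Scrublet called 0 doublets in each library and so has not worked; doublets remain. Libraries share 37 barcodes (UV plus vitamin D and UV), 66 (UV plus vitamin D and control) and 55 (UV and control).

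Cells of all libraries were clustered together with scanpy 1.11.5 (2000 variable genes, 30 principal components, 15 neighbours, Leiden resolution 1), leaving 129 genes out of the variable genes, the members and the p53 lists among them. Clusters were named from marker lists, needing at least 3 markers in 25% of cells; a class was compared where every library had 50 of its cells or more. Poisson and exact conditional intervals are at 95%, and genes with under 20 counts in the 2 libraries compared were left out. Ratios, intervals and the 1.5-fold threshold were tried on simulated counts of well-counted genes, with counting error only and without the added 10 CPM. The calls as made, with that addition and at low counts, were not tested. With 1 library per group there is no test. All members are named in the text, and of each list up to 4 genes with the largest ratio in keratinocytes and fibroblasts. The members and lists were chosen with earlier results of these data known.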

Additional observations from a re-analysis of the deposited data

Results flagged for a closer look

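Of the 10 genes, 3 were called in opposite directions in different cell classes for UV against control. Btg2 had log2 ratios of 1.43 in macrophages, monocytes and dendritic cells and -1.04 in late cornifying keratinocytes, Gadd45b of 0.77 in those immune cells and -1.09 in dividing keratinocytes, and Mdm2 of 0.62 and -0.69 in the same pair of classes. The difference between classes was not tested, since each is a value of the same 2 libraries. How many of all genes were called in opposite directions was not counted. In dividing keratinocytes 10.7% of all genes were called higher in UV and 11.5% lower, and in late cornifying keratinocytes 5.03% and 14.9%. In those immune cells, 18.3% of all genes were called higher in UV and 6.12% lower, and Krt1, Krt5, Krt10 and Krt14 stood at 20.1% of their keratinocyte level in UV and 20.5% in control. In that class 460 UV and 21 control cells fell in 1 cluster and 129 UV and 113 control cells in another, so different clusters hold most of it in the 2 libraries.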

How the results depend on the processing

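No paired analysis was possible because each group is 1 library. Over 80 member ratios, 1290 values were recomputed under other settings: 1076 stayed within the counting interval, 213 moved beyond it, and 1 called value changed sign, Cdkn1a in fibroblasts for UV plus vitamin D against UV (-0.14 with keratinocyte counts subtracted, 0.62 as reported). Of 129 recomputed counts of called members, 101 stayed within 1.5 times. For keratinocytes, UV against control, 3 lower became 1 lower with layers weighted to control, and 1 higher and 1 lower with size factors or without the stressed cluster; for UV plus vitamin D against UV, 0 became 1 with each cell assigned on its own. For basal cells, UV against control, 3 became 5 in the larger cluster alone. For suprabasal cells, UV against control, 2 lower became 1 higher and 0 lower with median-of-ratios size factors and without the stressed cluster, and 1 lower with layers weighted to control; the total became 4 at Leiden resolution 2 and 7 with library means subtracted; for UV plus vitamin D against UV, 0 became 1 with each cell weighted the same, with p53 genes kept in clustering, with thinning to 2500 counts and without the top 1% of cells, and 4 with library means subtracted. For fibroblasts, UV against control, 1 higher became 2 higher without the highest doublet scores, without the top 1% of cells and in the collagen-rich cluster alone. It became 3 higher at resolution 2, with each cell assigned on its own and with keratinocyte counts subtracted, and 4 higher with library means subtracted. In the Pi16 cluster alone 1 was higher and 2 lower. For fibroblasts, UV plus vitamin D against UV, 1 higher and 1 lower became 1 lower under 6 settings (size factors, totals without rRNA and mitochondrial genes, equal cell weights, and without high doublet scores, cells with RNA of another lineage or the top 1% of cells) and 5 lower with keratinocyte counts subtracted. The Cdkn1a call was also lost at resolution 2, with library means subtracted, with each cell assigned on its own and with thinning, where 0 were higher and 2 or 3 lower. The causes were not tested beyond what each setting removes. The single-cluster settings and those without the stressed cluster or the unnamed layers were chosen after seeing the data. In the collagen-rich cluster UV plus vitamin D had too few cells to compare. Low counts limit Ccng1, Trp53inp1, Sesn2 and Phlda3 in fibroblasts and all low members in late cornifying and dividing cells.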
